A study of Rattus norvegicus with 80 samples.

Results

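Expression of 6 CC chemokine genes, Ccl11, Ccl17, Ccl19, Ccl21, Ccl22 and Ccl24, was followed in rat lung after cellulose nanofibrils or carbon nanotubes had been placed in the airways. The 6 genes were taken by symbol from the 15924 genes measured, and every one was found on all 80 arrays. Ccl22 had 2 probes, which were averaged, and each of the others had 1. The animals were male Sprague-Dawley (Crl:CD[SD]) rats bought at 7 weeks of age, and each had a single intratracheal instillation. The materials were 3 preparations of cellulose nanofibrils (CNF1, CNF2 and CNF3), fine fibres of plant cellulose, and MWCNT, multi-walled nanotubes made of rolled carbon sheets. Controls received the vehicle of the respective material, which was distilled water containing preservatives, so they too were instilled. Lungs were perfused with saline and total RNA of the right lung was hybridised to one-colour Agilent arrays. For each of the 4 materials a vehicle and 3 exposed doses (2.0, 1.0 and 0.5 mg/kg) were followed on 5 days (1, 3, 7, 30 and 90), and every combination was represented by a single array.

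Without replicates, tests compared each effect with the residual variation left by a linear model, and p-values measure that variation alone. The protocol named 4 rats per group, array descriptions ended in replicate 4 (73 arrays) or 3 (7 arrays), and whether 1 array held 1 rat or a pool was not stated. The protocol gave a dose of 1 mg/kg and stated the strengths of the suspensions in mg/mL. The array labels give the same figures as mg/kg, and doses are written here as they are there. The deposited values were log2 values centred per probe. They hold no level, so chemokines could not be ranked by abundance and no marker could be called present or absent. In whole lung RNA, fewer cells of a type and less RNA per cell cannot be told apart.

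Chemokines are small secreted proteins that guide leukocytes through receptors coupled to G proteins. Ccl11 and Ccl24 (eotaxins 1 and 2) attract eosinophils through Ccr3. Ccl17 and Ccl22 are made by macrophages and dendritic cells in particular and attract type 2 helper T cells and other Ccr4-bearing cells. Both pairs are known from allergic and other type 2 responses of the lung, in which interleukins 4 and 13 raise them through the factor STAT6. Ccl19 and Ccl21 are homeostatic chemokines of lymphoid tissue and lymphatic vessels that bring dendritic cells and naive T cells to lymph nodes through Ccr7.

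Ccl17 and Ccl22 rose with every material at 2.0 mg/kg, Ccl24 rose with CNF1 and CNF2, Ccl21 fell with every material, and neither Ccl11 nor Ccl19 passed the test. For the effect of 2.0 mg/kg over the 5 days against the own vehicle, 14 of the 24 tests passed at an adjusted p of 0.05, 10 of them higher and 4 lower (limma, Benjamini-Hochberg over 15924 genes). That was 4 of the 6 chemokines for CNF1, where 41.6% of all genes were called, and 4 for CNF2, where 31.3% were called. It was 3 of 6 for CNF3, with 19.7% of all genes, and 3 of 6 for MWCNT, with 21.8%. Calls were thus frequent over the whole array. By direction, 21.8%, 15.6%, 9.75% and 12.7% of all genes were called higher with CNF1, CNF2, CNF3 and MWCNT. Called lower were 19.8%, 15.7%, 9.99% and 9.14%, so the 4 lower calls of 24, all of Ccl21, are near the share of all genes. The median effect over all genes lay between 0.003 and 0.037 on the log2 scale for the 4 materials.

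The 15 control spots named as positive or negative in the files were fitted in the same way. At 2.0 mg/kg their median lay 0.62 above vehicle with CNF1, 0.42 with CNF2, 0.37 with CNF3 and 0.17 with MWCNT, and 0 of 15 were called for any material (limma, 3, 7, 0 and 0 at an unadjusted p under 0.05). At 0.5 mg/kg it lay between 0.68 and 0.98 with 6 to 11 spots called, and at 1.0 mg/kg between 0.67 and 1.7 with 7 to 14 called. The part of this shift in any gene's difference was not tested directly, and fits with 3 factors of these spots are given below beside the comparisons by dose, day and period.

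Ccl17 (thymus and activation regulated chemokine) reached the highest single difference among the 6 genes, 5.09 with CNF1 on day 3. With 2.0 mg/kg CNF1 it was 3.71, 5.09, 1.47, 1.41 and 1.00 above its vehicle on the log2 scale on days 1, 3, 7, 30 and 90. With CNF2 the differences were 3.94, 4.13, 1.61, 0.51 and 0.65 on the same days. With CNF3 they were 3.80, 1.08, 1.35, 0.79 and 0.70. Under all 3 nanofibrils the highest value fell on day 1 or 3 and the lowest on day 30 or 90. With MWCNT the differences were 1.71, 2.28, 1.91, 1.76 and 2.55, with the highest on day 90. The deposited value of the exposed array was not highest then, at 1.22 on day 90 and 1.24 on day 7. Its vehicle array stood lower on day 90, at -1.33, than on day 7, at -0.67. All 60 exposed arrays, at every dose, were above their vehicle for Ccl17. Over the 45 nanofibril arrays the differences ran from 0.08 to 5.09 with a median of 1.41, and over the 15 MWCNT arrays from 0.64 to 2.55 with a median of 1.76. Over days 1 and 3 the median for the nanofibrils at 2.0 mg/kg was 3.87, or 14.6-fold, and over days 30 and 90 it was 0.74, or 1.67-fold.

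The effect of 2.0 mg/kg on Ccl17 over the days was 2.54 ± 0.44 (SE) for CNF1 (adjusted p = 9.6e-06), 2.17 ± 0.44 for CNF2 (adjusted p = 2e-04), 1.54 ± 0.44 for CNF3 (adjusted p = 0.01) and 2.04 ± 0.44 for MWCNT (adjusted p = 0.00064), all from limma over 5 arrays a dose. The CNF3 call rested on few arrays. It was lost without day 1 (0.98, adjusted p = 0.17), without day 7 (adjusted p = 0.053) and when other doses were left out of the fit (adjusted p = 0.11). The other 3 calls held in all of these settings.

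Ccl22 (macrophage-derived chemokine), the other Ccr4 ligand, followed the same course. With CNF1 it was 3.01, 4.79, 1.63, 1.26 and 0.39 above vehicle on days 1, 3, 7, 30 and 90 at 2.0 mg/kg. With CNF2 it was 3.96, 4.43, 1.94, 1.31 and 0.81 above. With CNF3 it was 3.35, 0.89, 1.76, 1.00 and 1.92 above, so that the second highest CNF3 array was that of day 90. With MWCNT it was 1.66, 2.48, 2.13, 1.35 and 2.48 above. All 60 exposed arrays were above their vehicle, by 0.31 to 4.79 for the nanofibrils and by 0.71 to 2.48 for MWCNT. The effect over the days was 2.22 ± 0.42 for CNF1 (adjusted p = 3.3e-05), 2.49 ± 0.42 for CNF2 (adjusted p = 1.4e-05), 1.78 ± 0.42 for CNF3 (adjusted p = 0.0018) and 2.02 ± 0.42 for MWCNT (adjusted p = 0.00039, limma). With the 2.0 mg/kg and vehicle arrays alone the CNF3 call ended (adjusted p = 0.05, just above the threshold).

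The 2 probes of Ccl22 gave different sizes but the same calls. One gave effects of 3.25, 3.56, 2.51 and 3 for CNF1, CNF2, CNF3 and MWCNT, and the other gave 1.18, 1.42, 1.05 and 1.04. Both passed the test in every material (limma over all probes, largest adjusted p = 0.016). The mean of the probes printed above thus lies between 2 quite different estimates, and the size of the Ccl22 change depends on the probe by more than its SE.

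**Figure D1:**
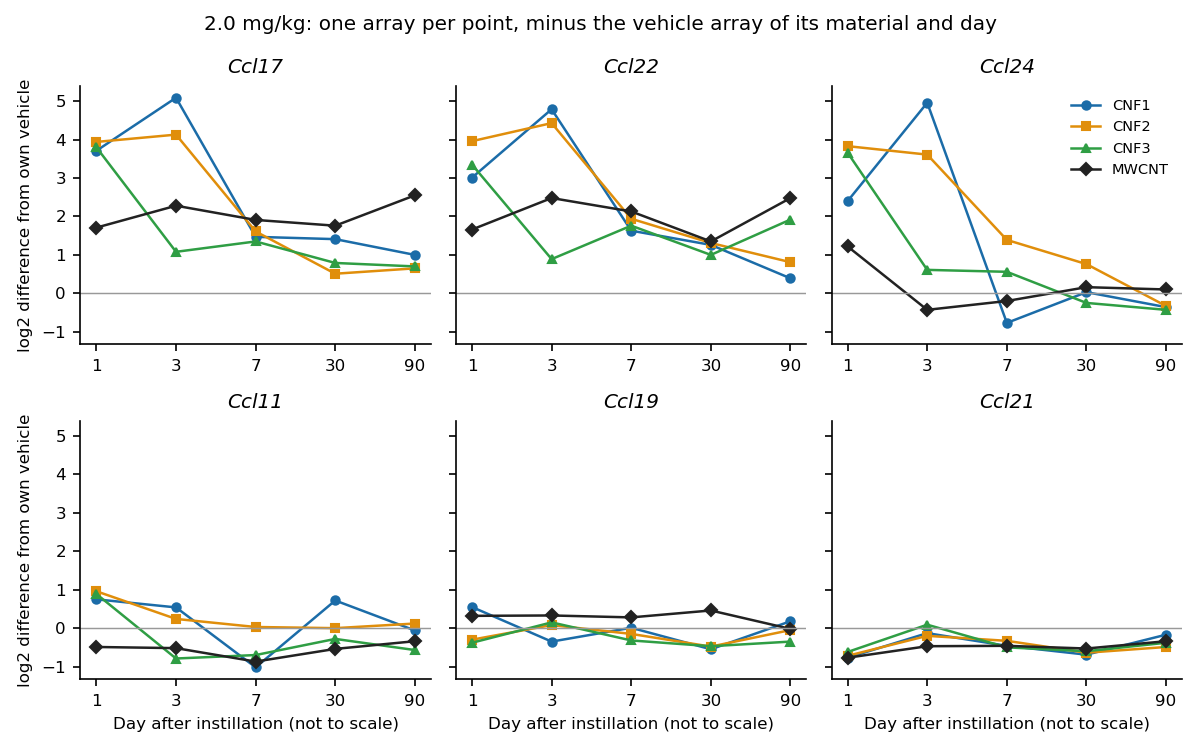
Each panel plots 1 chemokine at 2.0 mg/kg, with the day after instillation on the x axis (evenly spaced, not to scale) and the log2 difference of 1 array from the vehicle array of the same material and day on the y axis. Ccl17 and Ccl22 stand highest on day 1 or 3 with each nanofibril (up to 5.09 and 4.79, with CNF3 high on day 1 and not on day 3) and stay between 1.35 and 2.55 with MWCNT, Ccl24 is high with the nanofibrils early, and Ccl11, Ccl19 and Ccl21 lie between -1.02 and 0.96.

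Over the 80 arrays the deposited values of Ccl17 and Ccl22 correlated with r = 0.97, and each was the closest of 15923 other genes to its partner. These points share materials, doses and days, so r describes these arrays and is no test. In the RefSeq annotation of the rat assembly GRCr8 both genes lie on chromosome 19, with Cx3cl1 as the 1 protein-coding gene annotated between them. Apart from the 6 chemokines, the genes most like Ccl17 were Uck2 (r = 0.96), a kinase of uridine and cytidine, Fetub (r = 0.94), which encodes fetuin B, and Slc5a5 (r = 0.93), the sodium iodide symporter. Those most like Ccl22 were Bcl3, an atypical member of the IkB family, Uck2, and Sct, which encodes secretin, each with r = 0.93.

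Because Ccl17, Ccl22 and Ccl24 were the 3 that rose, the 250 bases before their annotated starts are shown, 5′ to 3′ on the gene's strand, from RefSeq (GRCr8). Of the 6 genes, 5 were in the promoter table and Ccl11 was not. Capitals mark matches, searched on both strands, to the STAT6 pattern (TTC, any 4 bases, GAA), to the GAS element of other STAT factors (TTC, any 3 bases, GAA) or to the TATA box TATAAA.
Ccl17 (chr19:10209896-10210145, minus strand): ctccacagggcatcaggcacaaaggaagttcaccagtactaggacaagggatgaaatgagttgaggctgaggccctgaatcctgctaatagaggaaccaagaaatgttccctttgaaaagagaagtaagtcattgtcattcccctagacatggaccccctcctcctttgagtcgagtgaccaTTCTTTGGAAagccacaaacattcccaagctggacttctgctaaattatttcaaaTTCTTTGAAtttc
Ccl22 (chr19:10270360-10270609, minus strand): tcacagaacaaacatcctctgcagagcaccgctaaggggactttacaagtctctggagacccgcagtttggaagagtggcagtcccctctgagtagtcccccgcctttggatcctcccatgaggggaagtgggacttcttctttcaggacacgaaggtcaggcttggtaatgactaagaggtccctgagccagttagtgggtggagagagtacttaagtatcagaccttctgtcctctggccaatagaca
Ccl24 (chr12:26737173-26737422, plus strand): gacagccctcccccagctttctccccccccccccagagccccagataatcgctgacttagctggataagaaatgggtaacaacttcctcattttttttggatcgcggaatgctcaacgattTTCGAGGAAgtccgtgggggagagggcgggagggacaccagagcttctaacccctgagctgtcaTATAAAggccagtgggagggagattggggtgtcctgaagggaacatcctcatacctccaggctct
The Ccl17 window held 1 STAT6 match, TTCTTTGGAA at positions -68 to -59 counted back from the start, and 1 GAS match, TTCTTTGAA at -13 to -5. This window lies inside the annotated span of Ccl17, which has a longer predicted transcript. The Ccl24 window held 1 GAS match, TTCGAGGAA at -129 to -121, and a TATA box at -65 to -60, and the matches did not overlap. No match to these 3 patterns or to the NF-kB consensus lay in the Ccl22 window, nor in those of Ccl19 and Ccl21. Over 33469 promoter windows of the same length, 6.3% held the STAT6 pattern, 7.7% the GAS pattern, 6.3% the NF-kB consensus and 12.9% the TATA box, so a match is a description of letters and shows no binding.

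Ccl24 (eotaxin 2) rose early with the nanofibrils and did not pass the test with MWCNT. With 2.0 mg/kg CNF1 it was 2.40 and 4.96 above vehicle on days 1 and 3, and then -0.77, 0.03 and -0.36 on days 7, 30 and 90. With CNF2 the differences were 3.83, 3.61, 1.39, 0.76 and -0.33 on the 5 days, and with CNF3 they were 3.66, 0.61, 0.56, -0.25 and -0.43. With MWCNT they were 1.22, -0.43, -0.20, 0.16 and 0.10. All 18 nanofibril arrays of days 1 and 3, whatever the dose, were above vehicle, by 0.61 to 4.96 with a median of 2.78 (6.88-fold). Of the 18 nanofibril arrays of days 30 and 90 only 8 were above vehicle, and their median was -0.04. Over the days the effect of 2.0 mg/kg was 1.25 ± 0.52 for CNF1 (adjusted p = 0.046), 1.85 ± 0.52 for CNF2 (adjusted p = 0.0048), 0.83 ± 0.52 for CNF3 (adjusted p = 0.28) and 0.17 ± 0.52 for MWCNT (adjusted p = 0.9, limma).

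Single days decided the calls of Ccl24. Without day 1 the CNF1 effect was 0.97 (adjusted p = 0.14) and the CNF2 effect 1.36 (adjusted p = 0.052). Without day 3 they were 0.33 (adjusted p = 0.69) and 1.42 (adjusted p = 0.059), and without both days, a setting chosen after the values were seen, -0.37 (adjusted p = 0.51) and 0.61 (adjusted p = 0.27). The CNF1 call was also lost after quantile normalization (0.96, adjusted p = 0.088), with 3 control-spot factors (0.86, adjusted p = 0.21) and with CNF1 fitted alone (adjusted p = 0.17). The genes most like Ccl24 over the 80 arrays were Cpxm1, Il13ra2 and Anp32e, each with r = 0.90, and Il13ra2, the decoy receptor of interleukin 13, is also in the list of type 2 genes below. Ccl24 correlated with Ccl17 at r = 0.87, with Ccl22 at 0.83 and with Ccl11 at 0.78.

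Ccl11 (eotaxin 1), which shares the receptor Ccr3 with Ccl24, had its highest differences at the low doses. With CNF1 it was 1.66, 1.52, 0.62, 1.07 and 0.44 above vehicle on days 1, 3, 7, 30 and 90 at 0.5 mg/kg, and 0.75, 0.54, -1.02, 0.72 and -0.06 at 2.0 mg/kg. With CNF2 it was 1.53, 1.02, 1.84, 1.42 and 0.26 at 0.5 mg/kg, and 0.96, 0.24, 0.03, 0.00 and 0.12 at 2.0 mg/kg. With CNF3 it was 1.11, 0.88, 0.61, 1.08 and 0.94 at 0.5 mg/kg, and 0.89, -0.79, -0.70, -0.28 and -0.57 at 2.0 mg/kg. All 15 nanofibril arrays at 0.5 mg/kg and all 15 at 1.0 mg/kg were above vehicle, against 9 of 15 at 2.0 mg/kg. With MWCNT the 5 arrays at 0.5 mg/kg were 0.01 to 1.06 above vehicle and the 5 at 2.0 mg/kg were all below it, from -0.87 to -0.34.

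The effect of 0.5 mg/kg on Ccl11 over the days was 1.06 ± 0.24 for CNF1 (adjusted p = 0.00036), 1.21 ± 0.24 for CNF2 (adjusted p = 5.5e-05) and 0.92 ± 0.24 for CNF3 (adjusted p = 0.004), while MWCNT gave 0.45 ± 0.24 (adjusted p = 0.14, limma). At 2.0 mg/kg it was 0.19 with CNF1, 0.27 with CNF2, -0.29 with CNF3 and -0.55 with MWCNT, each ± 0.24, and no adjusted p was under 0.097. The difference of 2.0 minus 0.5 mg/kg, a comparison added after the values were seen, was -0.88 ± 0.24, -0.94 ± 0.24, -1.21 ± 0.24 and -1 ± 0.24 in that order (adjusted p = 0.002, 0.0015, 0.00022 and 0.00084). In this comparison 8 of the 24 chemokine tests were called, all lower and all of Ccl11 or Ccl21. For the 4 materials 39.1%, 31.7%, 20.7% and 31.9% of all genes were called lower, so this count is near the share of all genes. Beside this comparison stands the shift of the control spots at 0.5 mg/kg given above. After quantile normalization Ccl11 was still lower at 2.0 than at 0.5 mg/kg in all 4 materials (-1.03 to -0.64), but with 3 control-spot factors the call held for CNF3 alone (-1.07 ± 0.35, adjusted p = 0.023), and none of the Ccl11 effects at 0.5 or 1.0 mg/kg passed. With these factors calls at 0.5 and 1.0 mg/kg fell over the whole array, as given below. The genes most like Ccl11 were Smpd3 (r = 0.87), a neutral sphingomyelinase, Col6a5 (r = 0.85), a collagen VI chain, and Tagln (r = 0.84), which encodes transgelin of smooth muscle.

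At the lower doses Ccl17 and Ccl22 were again called higher in every material in the deposited values. At 0.5 mg/kg 13 of the 24 tests were called, all higher, where 36.1%, 37.7%, 23.8% and 30.4% of all genes were called higher with CNF1, CNF2, CNF3 and MWCNT. At 1.0 mg/kg 13 were called higher, against 20.6%, 27.6%, 18.7% and 8.46% of all genes, and 1 lower, Ccl21 with CNF2, against 12.3%. Ccl17 gave 1.85, 1.90, 1.75 and 1.38 at 0.5 mg/kg, and Ccl22 gave 1.59, 1.98, 1.60 and 1.38, in the same order of materials and all called. The median over all genes was itself shifted at 0.5 mg/kg, by 0.107 to 0.139. The split of all calls at 0.5 mg/kg also depended on scaling: 74.5% to 81.1% of them were higher as deposited and 36.7% to 42.2% after quantile normalization. Ccl17 and Ccl22 were called higher in all 4 materials at 0.5 and 1.0 mg/kg after quantile normalization too. With 3 control-spot factors neither was called at these doses (Ccl17 from -0.93 to 0.86, Ccl22 from -0.21 to 0.97), whereas both kept all 4 calls at 2.0 mg/kg (1.3 to 2.06 and 1.57 to 2.2). Calls at the lower doses fell over the whole array too. With these factors 33, 226, 1059 and 34 of 15924 genes were called higher at 0.5 mg/kg with CNF1, CNF2, CNF3 and MWCNT. At 1.0 mg/kg they were 8, 10, 489 and 0, against 2871, 2077, 1423 and 2193 at 2.0 mg/kg. Ccl24 at 0.5 mg/kg turned from 0.57 to 1.46 as deposited to -1.68 to -0.53 with these factors, with larger SEs (0.74 to 1.05), and its calls at 0.5 and 1.0 mg/kg were lost. Of the 24 tests 1 was then called at 0.5 mg/kg, Ccl21 higher with CNF3 (0.59 ± 0.18, adjusted p = 0.032), and 0 at 1.0 mg/kg, where the Ccl21 call with CNF2 was lost. For 2.0 minus 0.5 mg/kg Ccl17 was then called higher with CNF1 (2.27 ± 0.78, adjusted p = 0.029) and MWCNT (2.51 ± 0.80, adjusted p = 0.03).

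**Figure D2:**
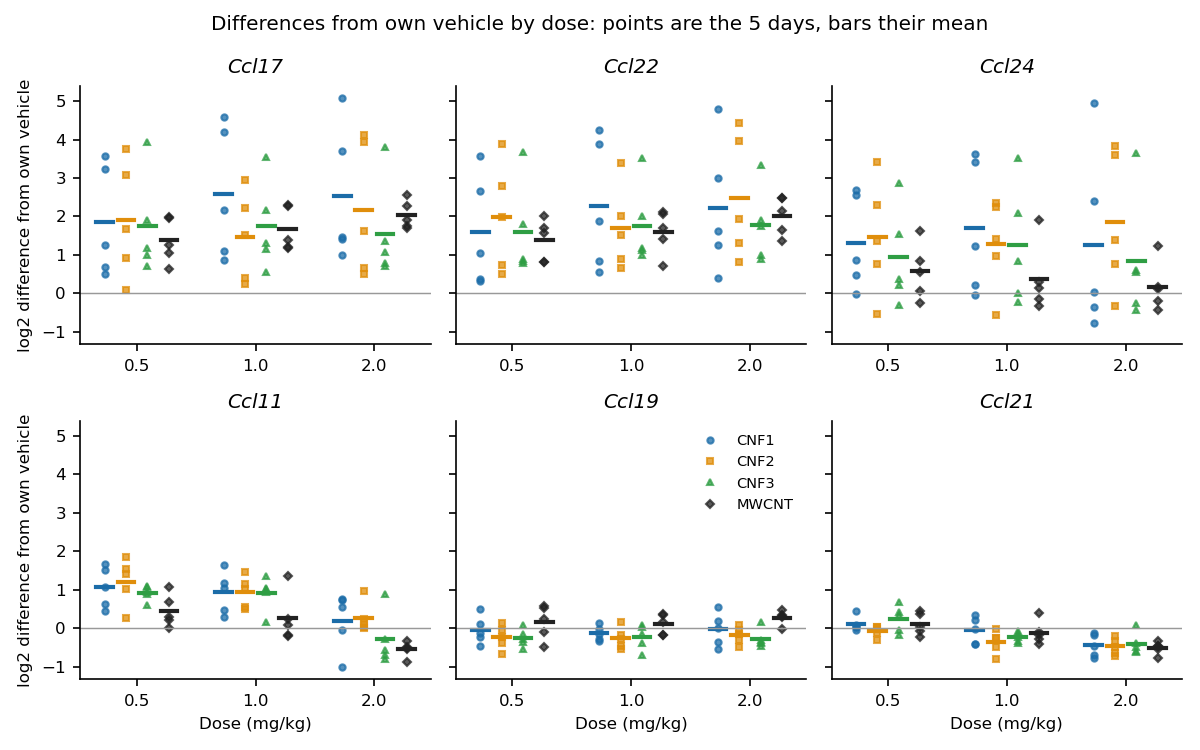
Each panel plots 1 chemokine, with the dose in mg/kg on the x axis and the log2 difference from the own vehicle on the y axis, where points are the 5 days of a material and bars their mean. Ccl17 and Ccl22 lie above 0 on every array at every dose, Ccl11 lies lower at 2.0 than at 0.5 mg/kg in each material, and Ccl21 lies below 0 on 19 of 20 arrays at 2.0 mg/kg.

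Ccl21, the Ccr7 ligand of lymphatic vessels and lymph nodes, fell in all 4 materials at 2.0 mg/kg, by a small amount. It differed from vehicle by -0.77, -0.13, -0.46, -0.69 and -0.17 on days 1, 3, 7, 30 and 90 with CNF1. The differences were -0.72, -0.20, -0.33, -0.64 and -0.49 with CNF2, and -0.62, 0.09, -0.50, -0.60 and -0.38 with CNF3. With MWCNT they were -0.77, -0.47, -0.46, -0.53 and -0.34. Of these 20 arrays 1 was above its vehicle, CNF3 on day 3. The effect over the days was -0.44 ± 0.14 for CNF1 (adjusted p = 0.0075), -0.47 ± 0.14 for CNF2 (adjusted p = 0.0067), -0.40 ± 0.14 for CNF3 (adjusted p = 0.031) and -0.52 ± 0.14 for MWCNT (adjusted p = 0.0048, limma). The nanofibril calls were fragile: all 3 were lost without day 1 (adjusted p = 0.066, 0.051 and 0.16), those of CNF1 and CNF3 without day 30, and that of CNF1 after quantile normalization (adjusted p = 0.12). The MWCNT call held in those settings.

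Markers of lymphatic endothelium, chosen because these cells make Ccl21, were lower in the same comparisons. Of 7 measured, 6 were lower with CNF1, 5 with CNF2, 4 with CNF3 and 6 with MWCNT, with medians of -0.62, -0.52, -0.28 and -0.42, where 19.8%, 15.7%, 9.99% and 9.14% of all genes were called lower. Lyve1, a hyaluronan receptor of lymphatic endothelium, fell by 0.73 with CNF1 (adjusted p = 3.3e-05) and by 0.65 with MWCNT (adjusted p = 0.00045). Flt4, the receptor of Vegfc, fell by 0.62 and 0.42 in these materials (adjusted p = 1e-05 and 0.004), and Mmrn1 by 1.00 and 0.83 (adjusted p = 0.00014 and 0.0032). Ackr4, described with the receptors below, is 1 of the 7. The member that was called in no material was Prox1, the transcription factor that defines the lymphatic lineage, at 0.22, 0.27, 0.37 and -0.22, each ± 0.41, and it is named here after its values were seen. The part of lymphatic endothelium in the Ccl21 difference was not tested. The genes most like Ccl21 over the arrays were Htra3 (r = 0.71), a serine protease, Cnpy4 (r = 0.70) and Rbpms (r = 0.70), an RNA-binding protein.

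Ccl19, the other Ccr7 ligand, passed no test at any dose over the days in the deposited values against the own vehicle. With a common control it was called lower with CNF3 at 2.0 mg/kg (-0.27, adjusted p = 0.024). Its differences at 2.0 mg/kg ran from -0.55 to 0.55 over the 20 arrays, and 9 of them were above vehicle. The effects over the days were -0.03, -0.18, -0.28 and 0.27 for CNF1, CNF2, CNF3 and MWCNT, each ± 0.13 (adjusted p = 0.89, 0.29, 0.12 and 0.13, limma). The 95% intervals ran from -0.29 to 0.22 for CNF1 and from 0.02 to 0.53 for MWCNT. Ccl19 and Ccl21 lie near each other on rat chromosome 5, with LOC689481 as the 1 gene annotated between them, and their values correlated at r = 0.09 over the 80 arrays. After quantile normalization Ccl19 was called lower with CNF2 (-0.66 and -0.63) and CNF3 (-0.53 and -0.48) at 0.5 and 1.0 mg/kg (limma, largest adjusted p = 0.018). It was still called in no material at 2.0 mg/kg. Lower calls were frequent over the whole array in that setting. Of 15924 genes 5504 and 5811 were called lower with CNF2 at 0.5 and 1.0 mg/kg, and 4250 and 4203 with CNF3. The genes most like Ccl19 were Ly6d (r = 0.50), Tmem50b (r = 0.45) and Rtkn (r = 0.42), so no gene tracked it closely.

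Set by period, the nanofibril effects on Ccl17 and Ccl22 were called over days 1, 3 and 7 and not over days 30 and 90, whereas those of MWCNT were called in both periods. Over days 1, 3 and 7 the effect of 2.0 mg/kg on Ccl17 was 3.42 ± 0.45 for CNF1 (adjusted p = 1.1e-07), 3.22 ± 0.45 for CNF2 (adjusted p = 1.1e-06), 2.08 ± 0.45 for CNF3 (adjusted p = 0.0014) and 1.97 ± 0.45 for MWCNT (adjusted p = 0.0031). Over days 30 and 90 it was 1.2 ± 0.55 for CNF1 (adjusted p = 0.34), 0.58 ± 0.55 for CNF2 (adjusted p = 0.79), 0.74 ± 0.55 for CNF3 (adjusted p = 0.65) and 2.16 ± 0.55 for MWCNT (adjusted p = 0.0084, limma). Ccl22 gave 3.14, 3.44, 2.00 and 2.09 early, all called, and 0.82, 1.06, 1.46 and 1.92 late, of which MWCNT alone was called (1.92 ± 0.52, adjusted p = 0.014). Ccl24 gave 2.20 (adjusted p = 0.0017), 2.94 (adjusted p = 0.00011), 1.61 (adjusted p = 0.044) and 0.20 (adjusted p = 0.86) early, and -0.16, 0.22, -0.34 and 0.13 late, with none called late.

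In the first week 11 of the 24 tests were called higher, where 24.2%, 18.9%, 10.2% and 8.06% of all genes were called higher with CNF1, CNF2, CNF3 and MWCNT. Another 2 were called lower, Ccl21 with CNF1 and MWCNT, against 21.8% and 5.22% of all genes. At days 30 and 90 the calls were 2 of 24, Ccl17 and Ccl22 with MWCNT, against 7.05% of all genes called higher for MWCNT and 0.923%, 2.1% and 2.95% for the 3 nanofibrils. Both MWCNT calls at days 30 and 90 were lost when other doses were left out of the fit (adjusted p = 0.12 and 0.14), as were those of Ccl17 and Ccl22 with MWCNT in the first week (0.079 and 0.051) and of Ccl24 with CNF3 (0.22). The control spots were higher in the first week, with medians of 0.88, 0.75, 0.61 and 0.41 and with 1, 8, 0 and 0 of 15 called. At days 30 and 90 their medians were 0.32, 0.15, 0.1 and -0.14, with 0 called (limma, 0 also at an unadjusted p under 0.05).

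The change itself, late minus early, was called for 3 of 24 tests. It was -2.22 ± 0.71 for Ccl17 with CNF1 (adjusted p = 0.043), -2.32 ± 0.68 for Ccl22 with CNF1 (adjusted p = 0.028) and -2.64 ± 0.71 for Ccl17 with CNF2 (adjusted p = 0.045), where 5.29% of all genes were called lower with CNF1 and 0.892% with CNF2. Ccl22 with CNF2 missed the threshold at -2.38 ± 0.68 (adjusted p = 0.053), as did Ccl24 at -2.36 ± 0.91 for CNF1 (adjusted p = 0.09) and -2.73 ± 0.91 for CNF2 (adjusted p = 0.1). For MWCNT the change was 0.19 ± 0.71 for Ccl17 and -0.17 ± 0.68 for Ccl22, with 95% intervals from -1.25 to 1.63 and from -1.54 to 1.2. None of the 3 calls held after quantile normalization (adjusted p = 0.18, 0.17 and 0.14), with 3 control-spot factors (0.088, 0.069 and 0.11) or when other doses were left out of the fit (0.2, 0.15 and 0.22).

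**Figure D3:**
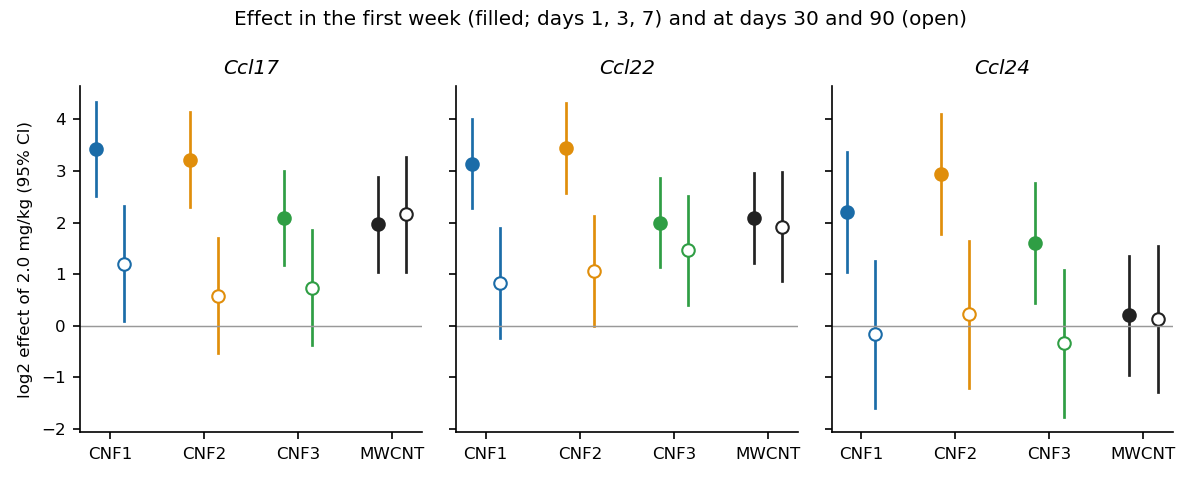
The y axis gives the effect of 2.0 mg/kg on Ccl17, Ccl22 and Ccl24 on the log2 scale with its 95% confidence interval, and the x axis the material, with filled points for days 1, 3 and 7 and open points for days 30 and 90. For Ccl17 the open points lie 2.22 and 2.64 below the filled ones with CNF1 and CNF2, and 0.19 above with MWCNT.

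No difference between materials was called for any chemokine against the own vehicles. Of the 36 tests (6 genes in 6 pairs of materials at 2.0 mg/kg over the days) 0 were called, with 5 at an unadjusted p under 0.05 and a smallest adjusted p of 0.22 (limma), where 1.63%, 0.107% and 0.484% of all genes were called for MWCNT minus CNF1, CNF2 and CNF3, 0.207% for CNF2 minus CNF1, 0% for CNF3 minus CNF1 and 0.151% for CNF3 minus CNF2. With a common control in place of the own vehicles 5 were called, but calls over all genes rose many-fold in that setting too, as counted in the closing sections. Ccl24 with MWCNT minus CNF2 gave -1.68 ± 0.73 (95% interval -3.15 to -0.22, adjusted p = 0.59). Ccl19 with MWCNT minus CNF3 gave 0.55 ± 0.18 (95% interval 0.18 to 0.91, adjusted p = 0.22). For Ccl17 the difference of MWCNT minus CNF1 was -0.49, with an interval from -1.75 to 0.76. Set by period, a comparison added later, 0 of 108 tests were called (limma, 15 at an unadjusted p under 0.05, smallest adjusted p = 0.13), where 0.327% of all gene tests were called. Ccl24 in the first week gave -2.75 ± 0.81 for MWCNT minus CNF2 (unadjusted p = 0.0016, adjusted p = 0.16), and the change of Ccl17 from early to late differed between MWCNT and CNF2 by 2.83 ± 1.01 (unadjusted p = 0.0078, adjusted p = 0.88). That Ccl17 and Ccl22 were called late with MWCNT and not with the nanofibrils is therefore no evidence of a difference between materials.

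For a single day the first test was the slope over dose. Of 120 slopes 3 were called, against 2.65% of the slopes of all genes, all with CNF1 on day 3, where 15.4% of all genes had a slope called higher. Ccl24 rose by 2.31 ± 0.51 per mg/kg (adjusted p = 0.00058), Ccl17 by 2.24 ± 0.62 (adjusted p = 0.0052) and Ccl22 by 2.10 ± 0.58 (adjusted p = 0.0053, limma). The arrays of that day rose in order of dose, from 3.58 to 4.19 to 5.09 above vehicle for Ccl17, from 3.57 to 4.26 to 4.79 for Ccl22 and from 2.55 to 3.42 to 4.96 for Ccl24. Most of the rise was already present at 0.5 mg/kg, and without the vehicle arrays the slopes of Ccl17 (0.99, adjusted p = 0.054) and Ccl22 (0.78, adjusted p = 0.09) missed the threshold. None of the 3 slopes was called after quantile normalization (adjusted p = 0.22, 0.19 and 0.061 for Ccl17, Ccl22 and Ccl24).

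The 3 exposed arrays of a material and day were then set together against the vehicle array, a comparison added after the values were seen. Of 120 tests 15 were called, against 1.72% over all genes, all higher, and they were Ccl17, Ccl22 and Ccl24 in each of 5 settings: CNF1 on days 1 and 3, CNF2 on days 1 and 3, and CNF3 on day 1. All genes called higher in these settings were 1.6%, 11.5%, 0.465%, 7.45% and 0.622%. Ccl17 was 3.85 ± 0.55 above vehicle with CNF1 on day 1 (adjusted p = 0.00023), 3.08 ± 0.55 with CNF2 (adjusted p = 0.0037) and 3.76 ± 0.55 with CNF3 (adjusted p = 0.00033). Ccl24 was 2.91 ± 0.63, 3.16 ± 0.63 and 3.35 ± 0.63 above vehicle on that day (adjusted p = 0.0089, 0.0089 and 0.0034, limma). After quantile normalization the same 15 were called. With 3 control-spot factors 27 were called, these 15 and 12 more of Ccl17 or Ccl22. The share of all genes called in these settings is not given here, so neither count has a background beside it. With MWCNT no single day passed for any chemokine in the deposited values (limma), whereas 6 of the 12 were with MWCNT: Ccl17 on days 1 and 3 (adjusted p = 0.0065 and 0.0071) and Ccl22 on days 1, 3, 7 and 90 (adjusted p = 0.0036, 0.0031, 0.02 and 0.03). The largest MWCNT effects in the deposited values were 2.20 ± 0.54 for Ccl22 on day 3 (unadjusted p = 0.00021, adjusted p = 0.11) and 2.19 ± 0.55 for Ccl17 on day 3 (adjusted p = 0.12).

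The vehicle lungs were not constant over time. Across the 20 vehicle arrays 4 of the 6 chemokines differed between days by an F test with material as a block, where 11.9% of all genes were called. Each adjusted p in this paragraph belongs to that F test over all days, and single days were not tested against day 1. Ccl11 stood at 0.86, 1.32, 0.83 and 0.52 in the vehicles of CNF1, CNF2, CNF3 and MWCNT on day 1, and between -0.89 and 0.19 on all later days, so day 1 did not overlap the rest. Against day 1 it was lower by 1.02 to 1.58 in size on the later days (-1.02, -1.58, -1.33 and -1.40, each ± 0.17, adjusted p = 0.00027). Ccl17 declined too, to -1.06 ± 0.15 against day 1 on day 90 (adjusted p = 0.0022), and Ccl22 to -0.67 ± 0.08 (adjusted p = 0.001). Ccl21 was lowest on day 7, at -0.35 ± 0.11 against day 1 (adjusted p = 0.045). Ccl24 (adjusted p = 0.63) and Ccl19 (adjusted p = 0.42, limma) did not pass. After quantile normalization 2 of the 6 passed, and the share of all genes called in that setting is not given here. Every difference from vehicle given above uses the vehicle of the same day, and each rests on that 1 vehicle array.

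**Figure D4:**
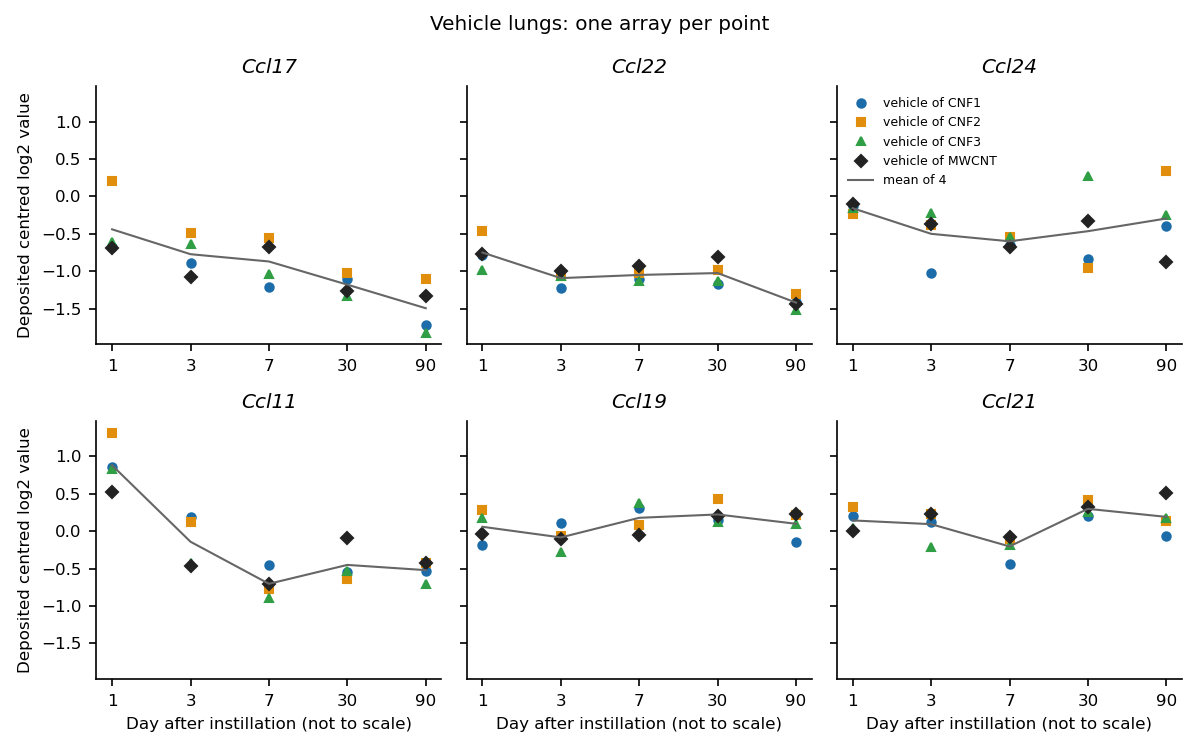
Each panel plots 1 chemokine in the 20 vehicle arrays, with the day after instillation on the x axis (evenly spaced, not to scale), the deposited log2 value centred per probe on the y axis, and the line at the mean of the 4 vehicles. Ccl11 lies between 0.52 and 1.32 on day 1 and at or below 0.19 afterwards, and Ccl17 declines towards day 90.

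Counts in the gene lists stand against the shares of all genes called at 2.0 mg/kg, which were 21.8%, 15.6%, 9.75% and 12.7% higher and 19.8%, 15.7%, 9.99% and 9.14% lower with CNF1, CNF2, CNF3 and MWCNT. The list of receptors held 6 measured genes and included Ccrl2, which binds chemerin and counts among those lower. Of the 6 listed, 1, 1, 2 and 1 were higher and 3, 3, 3 and 2 lower with CNF1, CNF2, CNF3 and MWCNT at 2.0 mg/kg. Their medians were -0.04, -0.17, -0.10 and -0.23, and 1 of 6 higher is near the share of all genes. Ccr3, the eotaxin receptor of eosinophils, rose by 1.25 ± 0.33 with CNF1 (adjusted p = 0.002) and by 1.10 ± 0.33 with CNF3 (adjusted p = 0.015), and gave 0.66 with CNF2 and 0.58 with MWCNT (adjusted p = 0.13 and 0.23). Ccr4, the receptor of Ccl17 and Ccl22, rose by 0.80 ± 0.31 with CNF2 (adjusted p = 0.043), 1.01 ± 0.31 with CNF3 (adjusted p = 0.017) and 0.84 ± 0.31 with MWCNT (adjusted p = 0.044), and gave 0.34 with CNF1. Ccr7, the receptor of Ccl19 and Ccl21, fell by 0.61 with CNF1 (adjusted p = 0.00012), by 0.55 with CNF2 (adjusted p = 0.00075) and by 0.53 with CNF3 (adjusted p = 0.0021), and gave -0.16 ± 0.13 with MWCNT (adjusted p = 0.43). Ackr4, which scavenges Ccl19 and Ccl21, fell by 1.04, 1.22, 0.70 and 0.68 (largest adjusted p = 0.0047). Ccrl2, which binds chemerin and does not signal, fell by 0.41, 0.37, 0.30 and 0.31, and Ackr2, which scavenges inflammatory CC chemokines, was called in no material.

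Of 12 genes of type 2 signalling measured, 5, 6, 2 and 2 were higher and 3, 1, 3 and 3 lower with CNF1, CNF2, CNF3 and MWCNT, with medians of 0.31, 0.35, 0.08 and 0.02. The 2 of 12 higher with CNF3 and MWCNT and the 3 of 12 lower with CNF1 are near the shares of all genes. Il1rl1, the receptor of interleukin 33, rose by 1.40 ± 0.21 with CNF1 (adjusted p = 7.5e-07), 1.32 ± 0.21 with CNF2 (adjusted p = 5.4e-06) and 0.75 ± 0.21 with CNF3 (adjusted p = 0.0084), and gave 0.31 with MWCNT (adjusted p = 0.34). Il13ra1, a subunit of the interleukin 13 receptor, rose in every material, by 0.39 with CNF1 and 0.28 with the others. Il4r, the shared receptor chain of interleukins 4 and 13, fell in every material, by 0.52, 0.41, 0.30 and 0.42, and Il33 fell with CNF1, CNF3 and MWCNT, by 0.54, 0.42 and 0.34.

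Among the 12 other CC chemokines measured, 7, 6, 6 and 7 were higher and 1, 0, 2 and 0 lower in the 4 materials, with medians of 0.74, 0.62, 0.66 and 0.99. Ccl9 rose by 3.18, 3.43, 3.2 and 1.93, each ± 0.34, and Ccl2, which attracts monocytes, by 1.95, 2.58, 1.94 and 2.89, each ± 0.34. Ccl3 rose by 1.73, 1.66, 1.94 and 1.64, and Ccl7 by 2.09, 2.22, 1.33 and 3.03 (largest adjusted p for these 4 genes 0.012, limma). Rises of this size were therefore not confined to the 6 chemokines. The homeostatic lymphoid genes, 7 measured, had 2, 3, 2 and 3 higher and 0, 1, 0 and 0 lower. Ltb, a lymphotoxin chain, rose by 0.78 with CNF1, 0.64 with CNF2 and 0.77 with MWCNT, and Il7 rose by 0.74, 0.45, 0.37 and 0.30. Cxcl13, which attracts B cells, rose by 0.52 with CNF3 (adjusted p = 0.0062) and 0.45 with MWCNT (adjusted p = 0.015), and Lta rose by 0.56 with CNF2 (adjusted p = 0.026).

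Markers of cells that these chemokines recruit were counted against the same shares. Of 9 eosinophil markers, of which Ccr3 is 1, 3, 1, 2 and 1 were higher and 2, 1, 1 and 2 lower in the 4 materials, with medians of 0.05, 0.28, 0.12 and 0.04, and 1 of 9 higher with CNF2 and MWCNT and 2 of 9 lower with CNF1 are near the shares of all genes. Cebpe, a granulocyte transcription factor, rose by 0.77, 0.90, 0.65 and 0.68. Alox15, a lipoxygenase also made by macrophages, fell by 0.93, 0.67, 0.56 and 0.94, and Rnase3 fell by 0.99 with CNF1 (adjusted p = 0.013) and 0.91 with MWCNT (adjusted p = 0.04). Of 10 dendritic cell markers, 6, 5, 3 and 6 were higher and 2, 0, 0 and 0 lower, with medians of 0.40, 0.42, 0.21 and 0.42. Their mean difference over the 5 days lay between 0.10 and 0.93 with CNF1, 0.26 and 0.84 with CNF2, 0.20 and 0.36 with CNF3 and 0.32 and 0.56 with MWCNT. Irf4, a transcription factor of dendritic cells, macrophages and lymphocytes, rose by 1.62, 1.76, 1.08 and 1.13, each ± 0.28, and Cd83, which marks mature dendritic cells, by 0.81, 1.07, 0.70 and 0.68, each ± 0.15. Batf3 rose with the 3 nanofibrils, by 0.60, 0.52 and 0.40, and Lamp3 rose with MWCNT, by 0.57 (adjusted p = 8.3e-05). These 4 genes were named for the smallest p among the 10, and the 2 lower calls with CNF1 are not given by name. Itgax, Clec9a, Zbtb46 and Fscn1 of this list were not measured. The part of dendritic cells in the rises of Ccl17 and Ccl22 was not tested.

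Of 11 T cell markers, 1, 1, 0 and 2 were higher and 2, 0, 0 and 0 lower in the 4 materials, at or below the shares of all genes in most cases. Icos rose by 0.92 with CNF1, 0.89 with CNF2 and 1.11 with MWCNT, Cd2 rose by 0.37 with MWCNT (adjusted p = 0.047), and Cd8a and Lck fell by 0.58 and 0.29 with CNF1. Of 5 B cell markers 4 were lower with each nanofibril and 0 with MWCNT, and Cd79b fell by 0.56, 0.28 and 0.65 with CNF1, CNF2 and CNF3. Ms4a1 fell by 0.30, 0.35 and 0.37 and Cr2 by 0.50, 0.54 and 0.56 in these materials, as did Cd79a (-0.48, -0.27 and -0.36). Of 7 neutrophil markers 4 were higher with MWCNT and 0 with any nanofibril, and S100a8 was lower with CNF1 (-0.62 ± 0.24, adjusted p = 0.037). Cd177 rose by 3.51 ± 0.32 with MWCNT (adjusted p = 3.4e-11), S100a9 by 1.85 ± 0.27, Csf3r by 0.94 ± 0.19 and S100a8 by 0.93 ± 0.24.

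Of 8 macrophage markers, 4, 3, 3 and 4 were higher and 2, 0, 0 and 0 lower with CNF1, CNF2, CNF3 and MWCNT, with medians of 0.40, 0.58, 0.38 and 0.52. Cd68, a lysosomal protein of macrophages, rose by 1.64, 1.70, 1.45 and 1.29, each ± 0.21, and Lgals3, which encodes galectin 3, by 1.52, 1.40, 1.38 and 1.01, each ± 0.15. Macrophages make Ccl17, Ccl22 and Ccl24, and the part of macrophage number in their rise was not tested. Of 8 lung epithelial markers, 1, 0, 1 and 1 were higher and 3, 3, 2 and 2 lower. Aqp5, a water channel of the alveolar epithelium, fell by 0.72, 0.56, 0.37 and 0.36. Of 6 fibroblast markers 4, 2, 2 and 2 were lower and 0 higher, and Dcn, which encodes decorin, fell by 1.09, 0.82, 1.10 and 0.88, each ± 0.13.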

How the data were processed

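Total RNA of rat right lung was measured on 80 one-colour Agilent arrays read with Feature Extraction 12.0.3.1, per the submitters' processing notes. The authors deposited log2 values (base not stated, taken as 2) from -6.13 to 9.39, centred near 0 per probe over the arrays. The normalization before deposit is not given in the sources used here, so a common shift of an array may remain, and the number of arrays limits the precision. Of 41012 rat probes, 20932 carried 1 gene symbol in the platform annotation and 20080 none. Symbols were updated through RefSeq GRCr8 (17415 by accession, 3113 already current, 396 by synonym, 8 kept), and probes were averaged into 15924 genes, 3910 of them with several probes. Ear11 was read as Rnase3.

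Models were fitted with limma 3.58.1 (lmFit and eBayes, R 4.3.3) on all genes, with Benjamini-Hochberg adjustment over 15924 genes at 0.05. The fit of the effect over days held dose within material plus day within material, the fit by period also let early and late effects differ, and slopes were fitted over dose on each day. Vehicle arrays were compared by an F test over days with material as a block. Differences printed for single arrays are from the vehicle array of the same material and day. With 1 array per group the spread comes from the model's residuals. The scripts (Python 3.11.15, numpy 2.4.6, pandas 2.3.3, matplotlib 3.10.9) were tested on simulated data.

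The 6 chemokines and the gene lists (receptors, type 2 genes, other CC chemokines, homeostatic lymphoid genes, and markers of eosinophils, mast cells and basophils, dendritic cells, T cells, B cells, lymphatic endothelium, macrophages, neutrophils, epithelium and fibroblasts) were chosen with earlier results of these data known. Genes outside the 6 were named as the listed genes with the smallest p over the 4 materials, up to 4 a list, or as the 3 genes of highest Pearson r with a chemokine. Others, in the paragraphs on marker lists, were named after their values were seen. Listed genes without a named probe, among them Il25, Ccl1, Mcpt1l1, Itgax, Clec9a, Zbtb46 and Fscn1, were not analysed here. Alternatives were quantile normalization, 3 factors from 15 control spots, fewer arrays, a common control, days, doses or materials left out, dose as a rank and single probes.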

Additional observations from a re-analysis of the deposited data

Results flagged for a closer look

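The effect of 2.0 mg/kg differed between the early period (days 1, 3 and 7) and the late period (days 30 and 90) by the test of the difference itself in 3 cases (limma, Benjamini-Hochberg over 15924 genes). Late minus early, Ccl17 with CNF1 gave -2.22 (adjusted p = 0.043), Ccl22 with CNF1 gave -2.32 (adjusted p = 0.028) and Ccl17 with CNF2 gave -2.64 (adjusted p = 0.045). All 3 calls were lost under quantile normalization, with control-spot factors and when other doses were left out of the fit.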

How the results depend on the processing

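Each result was recomputed under the alternatives. The values compared were those for single chemokines (at 2.0 mg/kg, by period and by slope) and the gene counts of single contrasts. Of these, 420 kept their side of the threshold, and their direction where called, or stayed within 1.5 times. Another 58 lost the call, 3 gained it and 60 gene counts moved further. Among values called in the main fit or the alternative, 1 reversed: Ccl24 with CNF1 was -0.37 without days 1 and 3 (limma, adjusted p = 0.51). Values called in neither fit count among the 420 even where their sign changed. At the lower doses Ccl24 also reversed with control-spot factors, to between -1.68 and -0.53 at 0.5 mg/kg, with no call. The cause was not tested for any change below unless the setting holds fewer arrays or more probes. Calls are counted over the 4 materials together. Where a chemokine count stands below without a gene count of the same setting, it has no background beside it. Such a count is not read as a result about the chemokines.

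The effect over days gave 14 chemokine calls and 18234 gene calls. Chemokine calls fell to 8 without day 1 and to 8 without days 1 and 3, where genes gave 8604, and each probe alone gave 38381 probe calls. Differences between materials gave 0 chemokine and 411 gene calls. Genes became 272 after quantile normalization, 4 when other doses were left out of the fit, 59 without day 7, 48 without day 30 and 753 without day 90. With a common control they became 8357, beside 5 chemokine calls. Each probe alone gave 701 probe calls, over 41012 probes in place of 15924 genes. Late minus early gave 3 chemokine and 1787 gene calls. These became 0 and 30 after quantile normalization, 0 and 246 when other doses were left out of the fit, 6 and 6197 with a common control, and 6 and 2818 with day 7 left out. Chemokine calls were 0 with each probe alone and 0 with control-spot factors. With these factors 673 and 40 genes were called lower with CNF1 and CNF2, against 843 and 142 as deposited.

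Dose slopes gave 3 chemokine and 8437 gene calls. After quantile normalization they gave 0 and 1295, with control-spot factors 9 and 14016, and with the mean of the exposed arrays 15 and 5491. Chemokine calls were 8 with dose as a rank and 6 without 0.5 mg/kg, and gene calls 2675 without 2.0 mg/kg. Each probe alone gave 15674 probe calls, over 41012 probes in place of 15924 genes. Vehicles by day gave 4 chemokine and 1902 gene calls, with 2 chemokine calls after quantile normalization and 2980 probe calls with each probe alone.

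No paired analysis was possible because each group held 1 array and replicate numbers pair nothing; arrays of a material and day already share a level in the fits. A filter on dim probes and the slide as a block were not run, since signal over background and slides were not used here.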

Other observations

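Markers of mast cells and basophils, which the chemokine results do not describe, had their highest mean difference on day 7 or 30 in every material. Of 8 measured, 3, 4, 0 and 1 were higher and 0 lower with CNF1, CNF2, CNF3 and MWCNT at 2.0 mg/kg, with medians of 0.71, 1.00, 0.50 and 0.26. Of all genes 21.8%, 15.6%, 9.75% and 12.7% were called higher, so 1 of 8 with MWCNT is near that share. Late minus early, 1 of the 8 was called higher with CNF1, where 635 of 15924 genes were. With CNF2, CNF3 and MWCNT 0 of the 8 were called in that comparison. The mean difference of the 8 genes from vehicle with CNF1 was -0.23, 0.20, 0.95, 1.54 and 0.87 on days 1, 3, 7, 30 and 90. With CNF2 it was -0.16, 0.45, 1.72, 1.21 and 0.82, and with CNF3 -0.05, -0.15, 1.05, 0.46 and 0.85. With MWCNT it was -0.18, 0.07, 0.77, -0.08 and 0.51. Ms4a2, the beta chain of the high-affinity IgE receptor, rose by 1.46 ± 0.37 with CNF1 (adjusted p = 0.0012) and 1.47 ± 0.37 with CNF2 (adjusted p = 0.0019). Cma1, a mast cell chymase, rose by 1.2 ± 0.34 with CNF1 (adjusted p = 0.0033) and 1.35 ± 0.34 with CNF2 (adjusted p = 0.0017). Hdc, which makes histamine, rose by 0.49 with CNF1 (adjusted p = 0.0019) and 0.44 with MWCNT (adjusted p = 0.01), and Fcer1a rose by 1.32 with CNF2 (adjusted p = 0.014, limma). No test of the difference in timing between these genes and the chemokines was made.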
